A study of Homo sapiens with 29 samples.

Results

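The earliest time at which CCL-treated HepG2 cells were compared with untreated cells was 6 h, and the comparison rests on 6 of the 29 arrays of the series: 3 of CCL-treated and 3 of untreated cells. CCL is the labels' abbreviation of Cratoxylum cochinchinense Lour, a plant whose preparations are used as a herbal medicine, and HepG2 is an established human liver cancer cell line. Members were taken by arm and time in the sample titles, and each arm has 1 array in each of sets 1, 2 and 3. No dose, solvent or vehicle control is given for either arm, what a set is remains unstated, and nothing says that the arrays came from separate cultures, so each p-value reflects array-to-array spread alone, which may be technical. The other groups are CCL-treated cells at 12 and 18 h (3 arrays each) and 24 and 48 h (2 each), and untreated cells at 0 h (2 arrays), 12 h (3), 18 h (2), 24 and 48 h (3 each).

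Within hours of a stimulus, cells switch on immediate early genes, which need no new protein to be transcribed. Many encode transcription factors of the FOS, JUN and EGR families, which then act on secreted signals such as cytokines. Stimuli that reach these genes through the kinase ERK also raise its own inhibitors, among them some dual-specificity phosphatases (DUSP genes) and Sprouty proteins, which switch the signal off again.

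Levels below are log2 expression after quantile normalization, and a difference of 1 is a doubling. A gene was called higher or lower when its adjusted p fell under 0.05 in limma, over the 6529 named genes above a log2 level of 5 on at least 2 of the 29 arrays. Of these genes, 59 were higher with CCL at 6 h, which is 0.904% of all genes tested, and 26 were lower, which is 0.398%. In the direction of the call, 44 of the 59 and 14 of the 26 differed at least 2-fold. At an unadjusted p under 0.05, the measure given below for lists without calls, 388 genes were higher (5.94%) and 410 lower (6.28%). Of the 59, 50 were above a level of 5 on at least 2 of the 16 untreated arrays of all times; DUSP5, FOSB, SNAI2, RND1, NAB2 and NDRG1 were so on none and FOS, FHL2 and DLX2 on 1, so these 9 passed the level filter through CCL arrays and had to be higher there. Among the 26, ZIK1, FAN1 and KCTD18 were above 5 on 2 untreated arrays each. CCL arrays above 5 were not counted, so whether lower genes passed the filter through untreated arrays alone was not checked. All 59 and all 26 kept one direction in each of the 3 sets. The 3 CCL arrays and the 3 untreated arrays did not overlap for 58 of the 59 and all 26, the exception being RND1. Arms that do not overlap give one direction in every set. The genes were chosen on these same arrays, so that direction is no separate support. Over all genes tested, the arms did not overlap for 535 higher (8.19%) and 729 lower (11.2%), or for 407 (6.23%) and 901 (13.8%) with the deposited values. Set numbers were taken as pairing the arms, a choice made from these same arrays and not from the labels. The block fits 1 offset per set over all 29 arrays, taken as equal at all times, which was not checked beyond 6 h. Adjusted p given with the block rest on that assumption. With the set as a block 111 genes were higher (1.7%) and 81 lower (1.24%), among them every one of the 59 and 26. These 2 shares stand beside every count of a list with the block below.

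The deposited values gave fewer calls, 18 higher (0.276%) and 2 lower (0.0306%), all of them among the 59 and 26, so that 90% of the calls were higher with the deposited values and 69.4% with the quantile-normalized ones. The CCL array of set 1 had a median deposited log2 value of 2.65, against 2.96 to 3.03 on the other 5 arrays of 6 h. The mean standard deviation between the arrays of a group was 0.273 in the CCL arm and 0.189 in the untreated arm. Single arrays moved the counts: leaving out 1 of the 6 gave between 15 higher genes (without the untreated array of set 2) and 47 (without the CCL array of set 1), and between 5 lower genes (without the untreated array of set 2) and 21 (without the CCL array of set 2).

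**Figure D1:**
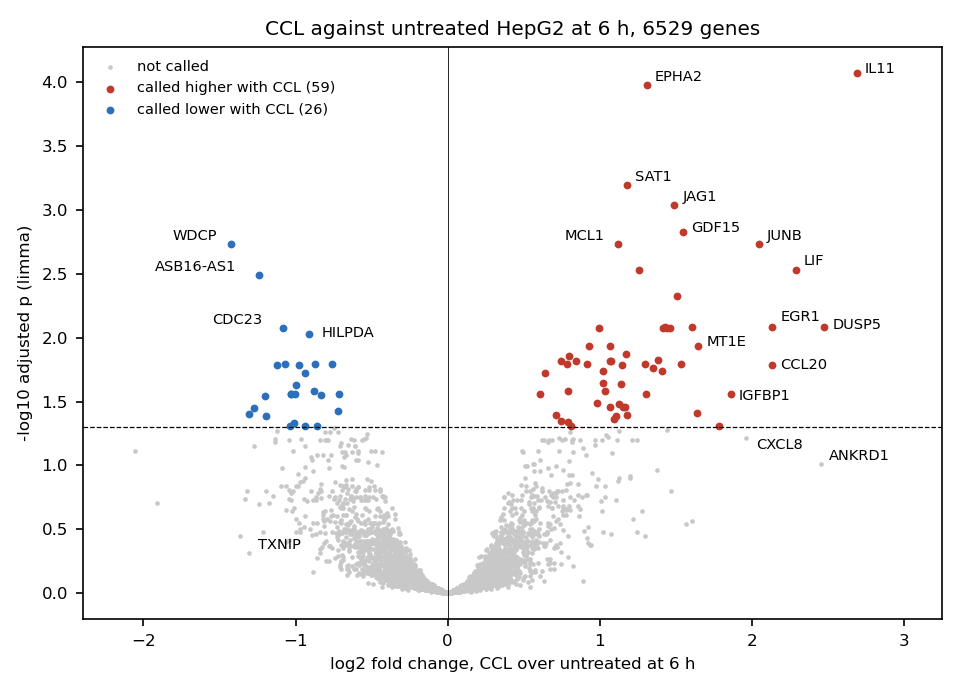
Log2 fold change of CCL over untreated cells at 6 h (x axis) against -log10 of the adjusted p of limma (y axis) for the 6529 genes tested, 1 point a gene. Red points are the 59 genes called higher with CCL, blue points the 26 called lower, and the dashed line is an adjusted p of 0.05; ANKRD1, CXCL8 and TXNIP lie under it in spite of their size.

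The cells carried their liver markers in both arms. ALB (albumin) averaged 11.93 ± 0.10 in CCL-treated and 11.98 ± 0.05 in untreated cells (SD, n = 3 each), AFP (alpha-fetoprotein) 10.86 and 10.77, and APOB 11.76 and 11.75. None of the 6 fibroblast and endothelial markers with a named probe set exceeded a level of 5 on any array of 6 h; their mean over the list ranged from 2.43 to 2.75 on the CCL arrays and from 2.44 to 2.56 on the untreated arrays. Of 6 leukocyte markers, CD68 and LYZ were above 5 on all 6 arrays, and the list's mean ranged from 5.55 to 5.64 on the CCL arrays and from 5.42 to 5.50 on the untreated arrays; CD14 averaged 3.06 and 2.73, CSF1R 2.87 and 3.06.

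Of 3 interleukin-6 family ligands tested, 2 rose, beside 0.904% of all genes. These were IL11 and LIF, which signal through the shared receptor subunit gp130. IL11 had levels of 8.57, 8.94 and 8.65 in the CCL arrays of sets 1 to 3, against 6.28, 6.08 and 5.72 in the untreated arrays. Its difference of 2.69 ± 0.32 (SE), a 6.45-fold higher level, was the largest of all genes called and had an adjusted p of 8.45e-05. LIF had 6.87, 6.78 and 7.38 with CCL and 4.74, 4.47 and 4.95 in untreated cells, a difference of 2.29 ± 0.39 (4.89-fold, adjusted p 0.00292). Both calls held with the deposited values (adjusted p 3.28e-04 and 0.00476) and without any 1 of the 6 arrays, where the adjusted p reached 0.00155 (IL11) and 0.029 (LIF) at most. The remaining measured ligand, CTF1 (cardiotrophin 1), differed by 0.16, and 0 of the 8 receptors and signalling genes of the family passed the test (1 higher and 0 lower at an unadjusted p under 0.05), with STAT3, their main transcription factor, at 0.03 ± 0.14.

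Of 12 other cytokines, chemokines and growth factors tested, 3 rose (CCL20, GDF15 and JAG1), beside 0.904% of all genes. None fell (9 higher and 0 lower at an unadjusted p under 0.05). A positive difference was seen in 11, and the median was 1.13, beside -0.002 over all genes. CCL20, a chemokine that attracts lymphocytes and dendritic cells carrying CCR6, had 10.05, 10.29 and 10.96 in CCL arrays, against 8.10, 8.52 and 8.28 in untreated arrays. The arms were far apart, but the difference of 2.13 ± 0.46 (adjusted p 0.0163) was not called with the deposited values (adjusted p 0.0693), nor without the CCL array of set 3 (0.0912) or without any 1 of the untreated arrays. GDF15, a stress-induced member of the TGF-beta superfamily, had 11.00, 11.20 and 11.15 with CCL and 9.69, 9.45 and 9.58 in untreated cells, a difference of 1.55 ± 0.24 (adjusted p 0.00149). JAG1, a ligand of the Notch receptors, had 10.06, 10.40 and 10.41 with CCL and 8.82, 8.87 and 8.72 in untreated cells, a difference of 1.49 ± 0.22 (adjusted p 9.11e-04). For GDF15 and JAG1 the arms did not overlap, and both calls held with the deposited values and without any 1 array (highest adjusted p 0.0172 and 0.00894).

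CXCL8 (interleukin-8) was as large but more scattered: 4.89, 4.84 and 6.17 with CCL against 3.22, 3.28 and 3.50 in untreated cells, a difference of 1.96 ± 0.52 with an adjusted p of 0.0616, or 0.00837 with the set as a block. EREG, an EGF receptor ligand, differed by 1.38 (adjusted p 0.108, or 0.0376 with the block), and EDN1 (endothelin 1) by 1.61 (0.272, or 0.107 with the block). With the block, 5 of the 12 were higher, beside 1.7% of all genes.

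IGFBP1, a liver-secreted binding protein of insulin-like growth factors, had 10.23, 10.47 and 9.54 in CCL arrays and 8.57, 7.81 and 8.28 in untreated arrays. Its difference of 1.86 ± 0.43 (3.63-fold, adjusted p 0.0275) passed in only 1 of the 6 fits that leave out an array (the one without the CCL array of set 3), with a highest adjusted p of 0.165 without the untreated array of set 2, and not with the deposited values (0.0859). FST (follistatin, which binds activins) rose by 1.35 ± 0.29 (adjusted p 0.0171), a call that ended without the CCL arrays of set 2 or 3 or the untreated arrays of set 1 or 2 (highest adjusted p 0.103) and with the deposited values (0.0594).

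The array also carries MIR3189, a microRNA gene that lies within GDF15 in the RefSeq annotation of GRCh38.p14. The 2 mature arms of its hairpin (chr19:18386570-18386594 and chr19:18386607-18386627, plus strand) are printed because it was the one microRNA gene called, of 134 tested. Over all genes 0.904% were called higher, so 1 call of 134 is no more than the general share. Capitals mark the seed, bases 2 to 8, and the seeds differ.
hsa-miR-3189-5p: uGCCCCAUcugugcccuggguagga
hsa-miR-3189-3p: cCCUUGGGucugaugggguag
MIR3189 had 7.17, 7.99 and 7.74 in CCL arrays against 5.95, 5.80 and 5.78 in untreated arrays, a difference of 1.79 ± 0.46 (adjusted p 0.0495). Its groups did not overlap, but the call ended whichever array was left out (highest adjusted p 0.165) and with the deposited values (0.0852). The probe set measures RNA of the locus, in which mature microRNA and host transcript are not told apart.

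Immediate early transcription factors had positive differences throughout, in all 17 tested, with a median of 0.82. Called higher were 6 of the 17, beside 0.904% of all genes, and none was called lower. In 15 the arms did not overlap with CCL higher, beside 8.19% of all genes. FOS and FOSB, 2 of the 6 called, passed the level filter through CCL arrays and had to be higher there. EGR1, a zinc finger factor induced by serum and growth factors, had 8.91, 9.54 and 10.89 in CCL arrays, against 7.68, 7.36 and 7.90 in untreated arrays. The set 3 array was the highest in both arms, and the difference of 2.13 ± 0.40 (4.39-fold) had an adjusted p of 0.00822, which became 0.0664 without the untreated array of set 2; the call ended also without the CCL array of set 3. A second EGR1 probe set at a lower level differed by 1.69. JUNB, a partner of the FOS proteins in the AP-1 factor, had 7.85, 8.12 and 9.72 with CCL and 6.21, 6.24 and 7.11 in untreated cells. The difference of 2.04 ± 0.33 (adjusted p 0.00184) held without any 1 array (highest adjusted p 0.0238), and EGR1 and JUNB were the 2 factors called with the deposited values (0.0195 and 0.00476).

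FOSB had 5.33, 5.63 and 7.27 with CCL, against 4.54, 4.47 and 4.62 in untreated cells. The CCL array of set 3 carried much of its difference of 1.53 ± 0.33 (adjusted p 0.0159), which was 0.94 without that array; the call ended without it and without the untreated arrays of set 1 or 2 (highest adjusted p 0.101). FOS had 5.32, 4.94 and 5.40 with CCL and 4.08, 4.02 and 4.13 in untreated cells, a difference of 1.14 ± 0.25 (adjusted p 0.0163) that was called in 1 of the 6 fits that leave out an array (without the CCL array of set 2). Both FOS genes were dim in untreated cells, and a second probe set of each, under the level filter, differed by 0.39 for FOS and 0.43 for FOSB.

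IER2, an immediate early nuclear protein, rose by 1.00 ± 0.19 (adjusted p 0.00842, but 0.0525 without the CCL array of set 3). CSRNP1 rose by 0.75 ± 0.19 (adjusted p 0.0452), a call lost whichever array was left out (highest adjusted p 0.191). FOSL1, another AP-1 subunit, had 7.90, 8.09 and 7.70 with CCL and 6.50, 6.43 and 6.43 in untreated cells. This difference of 1.44 ± 0.37 missed the threshold at an adjusted p of 0.0526 and passed it with the block (0.0289). JUN differed by 0.98 (adjusted p 0.146, or 0.00798 with the block). KLF6 differed by 0.76 (0.187), ATF3 by 0.67 (0.651) and MYC by 0.62 (0.15). ATF3 was low on the CCL array of set 1, at 3.61, beside 5.53 and 5.99 on the other CCL arrays and 4.29 to 4.41 in untreated cells. With the block 11 of the 17 factors were higher, beside 1.7% of all genes.

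**Figure D2:**
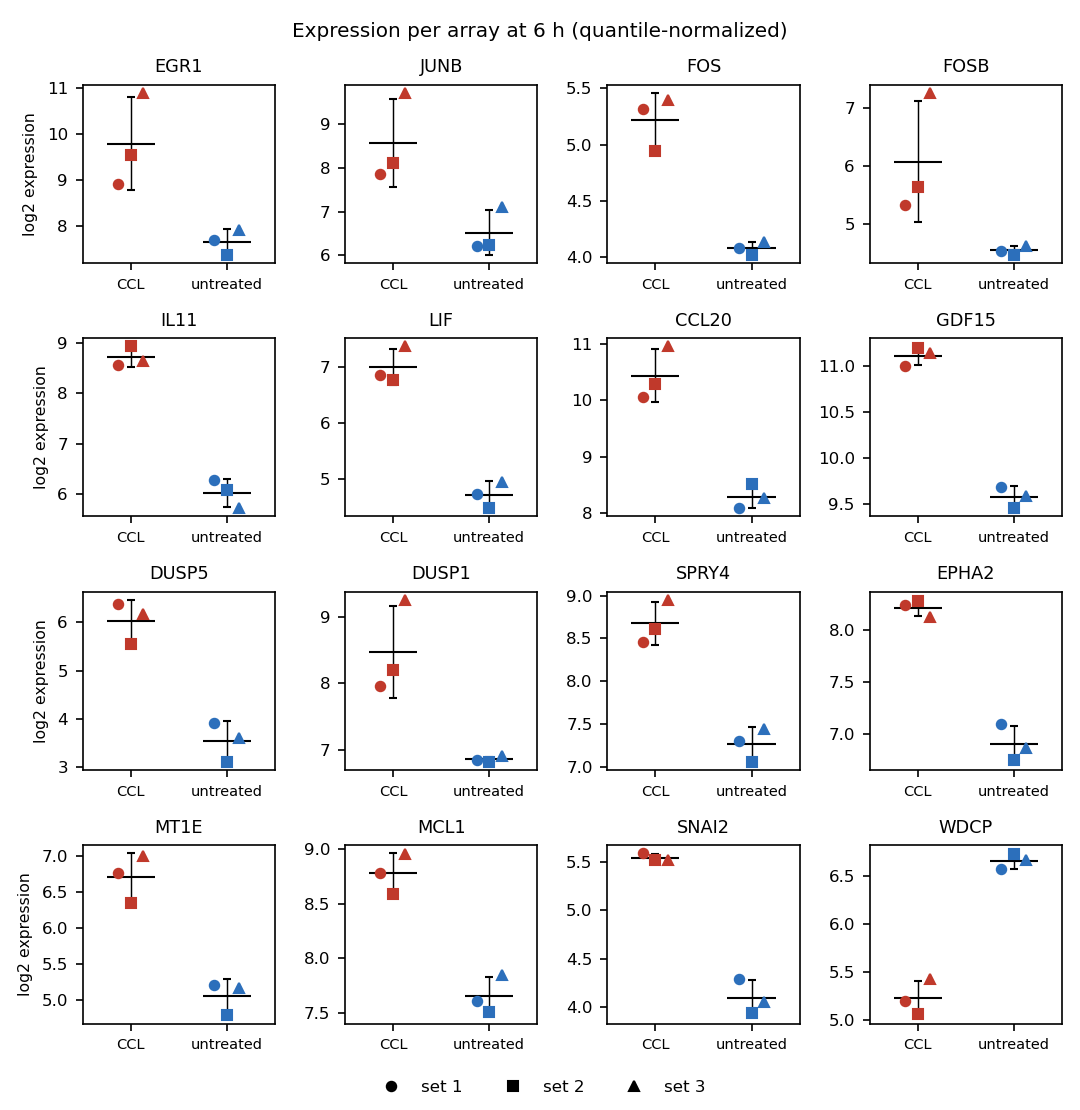
Log2 expression after quantile normalization on each array of 6 h for 16 named genes, CCL-treated cells on the left and untreated cells on the right of each panel, with a symbol for each set, the mean as a line and the SD (n = 3) as a bar. The y axes differ between panels and do not start at 0; in every panel the arms do not overlap, and EGR1, JUNB, FOSB and DUSP1 are highest on the CCL array of set 3.

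On a list of 16 tested phosphatase, Sprouty and other genes, named for feedback on ERK or its output, 5 were called higher, beside 0.904% of all genes. These were DUSP5, DUSP1, SPRY4, EPHA2 and DUSP8, of which DUSP5 passed the level filter through CCL arrays. Not every phosphatase of the list is specific to ERK, DUSP1 being one of the stress kinases p38 and JNK. A positive difference was seen in 15 of the 16, with a median of 0.45. ERK activity itself was not measured. DUSP5, a nuclear phosphatase that inactivates ERK, had 6.38, 5.54 and 6.17 with CCL and 3.93, 3.11 and 3.61 in untreated cells. Untreated arrays lay under the level filter of 5 and CCL arrays above it, with a difference of 2.48 ± 0.47 whose size is uncertain because no detection call shows the untreated signal to be above background (adjusted p 0.00822, but 0.0737 without the untreated array of set 2); a second, dim probe set at about 2.6 in both arms differed by 0.05. EPHA2, a receptor tyrosine kinase for ephrins, had 8.24, 8.28 and 8.13 with CCL and 7.10, 6.76 and 6.87 in untreated cells. The arms did not overlap, and the difference of 1.31 ± 0.16 had an adjusted p of 1.06e-04, with a highest value of 0.00175 when 1 array was left out.

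DUSP1, a phosphatase of the stress kinases p38 and JNK, had 7.96, 8.20 and 9.25 with CCL and 6.86, 6.83 and 6.91 in untreated cells, a difference of 1.60 ± 0.30 (adjusted p 0.00822, but 0.0576 without the CCL array of set 3). SPRY4, a Sprouty inhibitor of receptor tyrosine kinase signalling, had 8.46, 8.61 and 8.95 with CCL and 7.30, 7.06 and 7.45 in untreated cells, a difference of 1.41 ± 0.31 (adjusted p 0.0183). Its call ended without the CCL arrays of set 2 or 3 or the untreated arrays of set 1 or 2 (highest adjusted p 0.113), and with the deposited values (0.0594). DUSP8 rose by 1.06 ± 0.21 (adjusted p 0.0117), a call that ended without the CCL array of set 2 or the untreated array of set 3 (highest adjusted p 0.0853). DUSP6, the cytoplasmic ERK phosphatase, differed by 0.58 ± 0.19 (adjusted p 0.145), and its arms overlapped.

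Of 9 other immediate early genes, 3 rose (PLK3, IER3 and ERRFI1), beside 0.904% of all genes, and none fell. At an unadjusted p under 0.05, 6 were higher and 1 lower, and with the block 4 were higher and 1 lower. PLK3, a polo-like kinase of the stress response, rose by 1.51 ± 0.27 (adjusted p 0.00467) and held without any 1 array (highest adjusted p 0.0391). IER3, which modulates cell survival, rose by 1.42 ± 0.27 (adjusted p 0.00842, but 0.0601 without the CCL array of set 3). ERRFI1, an inhibitor of the EGF receptor, rose by 1.30 ± 0.30 (adjusted p 0.0275), but was called only without the untreated array of set 3 among the 6 fits (highest adjusted p 0.16). SGK1, a kinase of the AKT family, had 3.87, 4.33 and 4.56 with CCL against 4.81, 4.78 and 5.36 in untreated cells, a difference of -0.73 (adjusted p 0.198, or 0.0186 with the block). IER3 has several probe sets, some with identical values, whose differences ranged from 0.73 to 1.5.

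The promoters of 5 of these genes are printed below, as windows of 300 bases around the transcription start, mostly upstream of it, from the RefSeq table of GRCh38.p14, since factors of the families above are known to act at such places. Capitals mark a match to the CArG box, which serum response factor binds (EGR1, FHL2), the AP-1 site TGANTCA (IL11), the cyclic AMP response element TGACGTCA (DUSP1) and the kB site (CCL20), each searched on both strands. The regions are chr5:138465229-138465528, plus strand, for EGR1; chr2:105438464-105438763, minus strand, for FHL2; chr19:55370414-55370713, minus strand, for IL11; chr5:172771146-172771445, minus strand, for DUSP1; and chr2:227813592-227813891, plus strand, for CCL20.
EGR1: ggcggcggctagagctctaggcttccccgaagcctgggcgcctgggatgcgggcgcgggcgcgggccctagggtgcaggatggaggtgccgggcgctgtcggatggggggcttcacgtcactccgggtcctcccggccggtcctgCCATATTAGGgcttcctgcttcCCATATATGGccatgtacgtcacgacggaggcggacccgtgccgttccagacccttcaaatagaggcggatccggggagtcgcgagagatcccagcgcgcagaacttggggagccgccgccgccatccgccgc
FHL2: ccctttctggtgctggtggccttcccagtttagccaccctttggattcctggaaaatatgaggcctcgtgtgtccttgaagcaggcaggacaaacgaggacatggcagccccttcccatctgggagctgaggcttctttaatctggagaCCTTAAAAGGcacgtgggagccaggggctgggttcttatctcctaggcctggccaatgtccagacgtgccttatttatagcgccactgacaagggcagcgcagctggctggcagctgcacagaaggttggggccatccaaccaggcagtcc
IL11: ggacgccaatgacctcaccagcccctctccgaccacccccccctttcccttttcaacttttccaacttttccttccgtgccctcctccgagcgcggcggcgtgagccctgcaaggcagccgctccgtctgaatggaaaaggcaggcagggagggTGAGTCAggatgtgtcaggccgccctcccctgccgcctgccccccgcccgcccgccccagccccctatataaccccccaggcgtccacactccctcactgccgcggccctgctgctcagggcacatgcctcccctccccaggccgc
DUSP1: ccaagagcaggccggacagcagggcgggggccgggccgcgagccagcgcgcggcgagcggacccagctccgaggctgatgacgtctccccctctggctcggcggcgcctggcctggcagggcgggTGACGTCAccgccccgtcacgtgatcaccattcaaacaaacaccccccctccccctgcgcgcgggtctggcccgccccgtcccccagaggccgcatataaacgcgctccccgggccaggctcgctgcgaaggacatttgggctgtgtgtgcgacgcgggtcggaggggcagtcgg
CCL20: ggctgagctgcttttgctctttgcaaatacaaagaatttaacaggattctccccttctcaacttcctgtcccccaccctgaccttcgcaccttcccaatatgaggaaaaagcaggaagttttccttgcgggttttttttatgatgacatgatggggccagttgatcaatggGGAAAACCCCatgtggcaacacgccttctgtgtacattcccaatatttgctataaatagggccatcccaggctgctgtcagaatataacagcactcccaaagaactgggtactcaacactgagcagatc
A promoter was at hand for 42 of the 59 higher genes, 22 of the 26 lower genes and 5261 of all 6529. A CArG box was found in 3 of the 42 (7.14%, in EGR1, FHL2 and AKAP12), in 0 of the 22 and in 0.931% of all. EGR1 had 2 of them, and FHL2 passed the level filter through CCL arrays. Matches to different motifs may overlap and were counted for each. The AP-1 site was found in 4.76% of the higher genes' promoters, 9.09% of the lower genes' and 3.76% of all. For the cyclic AMP response element the shares were 7.14%, 4.55% and 3.61%. They were 11.9%, 4.55% and 6.54% for the kB site, and 26.2%, 9.09% and 16.6% for the EGR site GCGNGGGCG. For the STAT site TTCNNNGAA they were 4.76%, 13.6% and 5.91%, and for the metal response element (TGCACNC or TGCGCNC) 47.6%, 40.9% and 39.5%. The median GC content of these promoters was 69.5% for the higher genes, 62.2% for the lower genes and 66% for all; its part in the shares was not tested. The counts behind these shares are small, from 1 to 20 genes in the called groups where a match was found. A match is a description of letters in a window of 300 bases, and no binding was measured.

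Of 13 targets of YAP and serum response factor, 2 were called higher (FHL2 and AXL; 0.904% of all genes were) and none lower (8 higher and 0 lower at an unadjusted p under 0.05), with a median of 0.58 and 9 of 13 higher without overlap, beside 8.19% of all genes. FHL2, a LIM-domain cofactor, passed the level filter through CCL arrays and had to be higher there. It rose by 1.13 ± 0.27 (adjusted p 0.0333), and AXL, a receptor tyrosine kinase, by 1.09 ± 0.27 (adjusted p 0.0431). Each of these calls was kept in 1 of the 6 fits that leave out an array (highest adjusted p 0.165 for FHL2 and 0.279 for AXL, both without the untreated array of set 2) and neither with the deposited values. ANKRD1, a well-known YAP target, had 9.57, 8.82 and 10.94 with CCL and 7.32, 6.60 and 8.06 in untreated cells, a difference of 2.45 ± 0.73 that was not called (adjusted p 0.0971, or 0.021 with the block). In both arms its set 3 array was the highest and its set 2 array the lowest. ZYX (zyxin, of focal adhesions) rose by 1.07 ± 0.22 (adjusted p 0.0153; highest 0.109 without the untreated array of set 2) and TGFB1I1 (Hic-5, likewise of focal adhesions) by 1.15 ± 0.28 (0.0349; highest 0.242 without the same array).

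Of 9 tested genes that mark TGF-beta responses or the transition of epithelial to mesenchymal cells, 1 rose (SNAI2), beside 0.904% of all genes, and none fell (3 higher and 0 lower at an unadjusted p under 0.05). SNAI2 passed the level filter through CCL arrays and had to be higher there. SNAI2, the repressor Slug, had 5.60, 5.53 and 5.53 with CCL and 4.29, 3.94 and 4.04 in untreated cells, a difference of 1.46 ± 0.28 (adjusted p 0.00842, but 0.0735 without the untreated array of set 2 and 0.0665 with the deposited values). Its relative SNAI1 differed by 1.13 ± 0.29 (adjusted p 0.0534, or 0.0165 with the block). With the block, 3 of the 9 were higher, beside 1.7% of all genes.

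Survival and stress genes gave single calls. MCL1, the short-lived inhibitor of apoptosis, had 8.79, 8.59 and 8.96 with CCL and 7.61, 7.51 and 7.85 in untreated cells, a difference of 1.12 ± 0.18 (adjusted p 0.00184) that held without any 1 array (highest adjusted p 0.0233). It was the one BCL2 family gene called of 10, beside 0.904% of all genes called higher, and the family median was 0.20. SAT1, which acetylates polyamines for their breakdown, had 8.98, 8.76 and 8.94 with CCL and 7.66, 7.95 and 7.54 in untreated cells, a difference of 1.18 ± 0.17 (adjusted p 6.36e-04), also held without any 1 array (highest adjusted p 0.00736). WEE1, the kinase that holds CDK1 inactive, had 8.80, 9.28 and 10.07 with CCL and 7.84, 8.17 and 7.85 in untreated cells, a difference of 1.43 ± 0.27 (adjusted p 0.00822, but 0.0594 without the CCL array of set 3).

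MT1E, a metallothionein that binds zinc and other metals, had 6.76, 6.34 and 7.0 with CCL and 5.21, 4.78 and 5.16 in untreated cells. The arms did not overlap, and the difference of 1.65 ± 0.33 had an adjusted p of 0.0117; the call ended without the CCL array of set 3 or the untreated array of set 2 (highest adjusted p 0.1). It was the 1 gene called of 7 in its list, beside 0.904% of all genes called higher. In that list MT1G differed by 1.29 (adjusted p 0.36, or 0.116 with the block), MT2A by 0.80 (0.138, or 0.0145 with the block) and MT1X by 0.71 (0.178, or 0.108 with the block). Metallothionein genes are close copies of each other, and how far their probe sets share RNA is uncertain.

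Several known stress programmes gave few or no calls at 6 h. Of 10 targets of NRF2, the factor of the antioxidant response, 0 passed the test (3 higher and 0 lower at an unadjusted p under 0.05; 1 higher with the block), with a median of 0.37. HMOX1 (heme oxygenase 1), a target of the same factor, had 6.26, 7.09 and 9.15 with CCL and 6.66, 6.25 and 7.96 in untreated cells, and its difference of 0.54 turned to -0.28 without the CCL array of set 3. Of 16 targets of ATF4 and CHOP, the factors of the amino acid and unfolded protein responses, 0 passed (0 higher and 2 lower at an unadjusted p under 0.05), with a median of -0.17. For 10 endoplasmic reticulum chaperones and regulators and for 8 heat shock genes both counts were 0 even at an unadjusted p under 0.05, and the medians were -0.01 and 0.08. For 10 NF-kB targets 0 passed (2 higher and 0 lower at an unadjusted p under 0.05), with a median of 0.10. The 1 p53 target called of 11, beside 0.904% of all genes called higher, was GDF15, which other stress factors induce as well. The list's median was 0.10.

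Besides IGFBP1, liver genes gave 1 call. Of 19 secreted liver proteins 0 passed (1 higher and 0 lower at an unadjusted p under 0.05), 18 of them lay between -0.11 and 0.18, and the exception was HAMP (hepcidin, the iron hormone), with 8.59, 8.40 and 9.37 in CCL arrays against 7.60, 7.44 and 7.72 in untreated arrays (difference 1.20, adjusted p 0.122, or 0.0258 with the block). Of 9 liver transcription factors 1 rose, beside 0.904% of all genes, and none fell (1 lower at an unadjusted p under 0.05). It was TBX3, with a difference of 0.93 ± 0.19 (adjusted p 0.0117, but 0.0865 without the untreated array of set 2 and 0.0918 with the deposited values). Of 13 genes of cholesterol synthesis and uptake 0 passed (1 higher and 2 lower at an unadjusted p under 0.05; 1 lower with the block), with a median of -0.17. TXNIP, a glucose-induced inhibitor of thioredoxin, had 6.71, 6.32 and 4.33 with CCL and 7.85, 7.77 and 5.65 in untreated cells: set 3 was the lowest in both arms, and the difference of -1.30 was not called (adjusted p 0.489, or 0.107 with the block). In its list of 7 glucose-responsive genes 0 passed (2 higher and 1 lower at an unadjusted p under 0.05; 1 higher with the block).

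**Figure D3:**
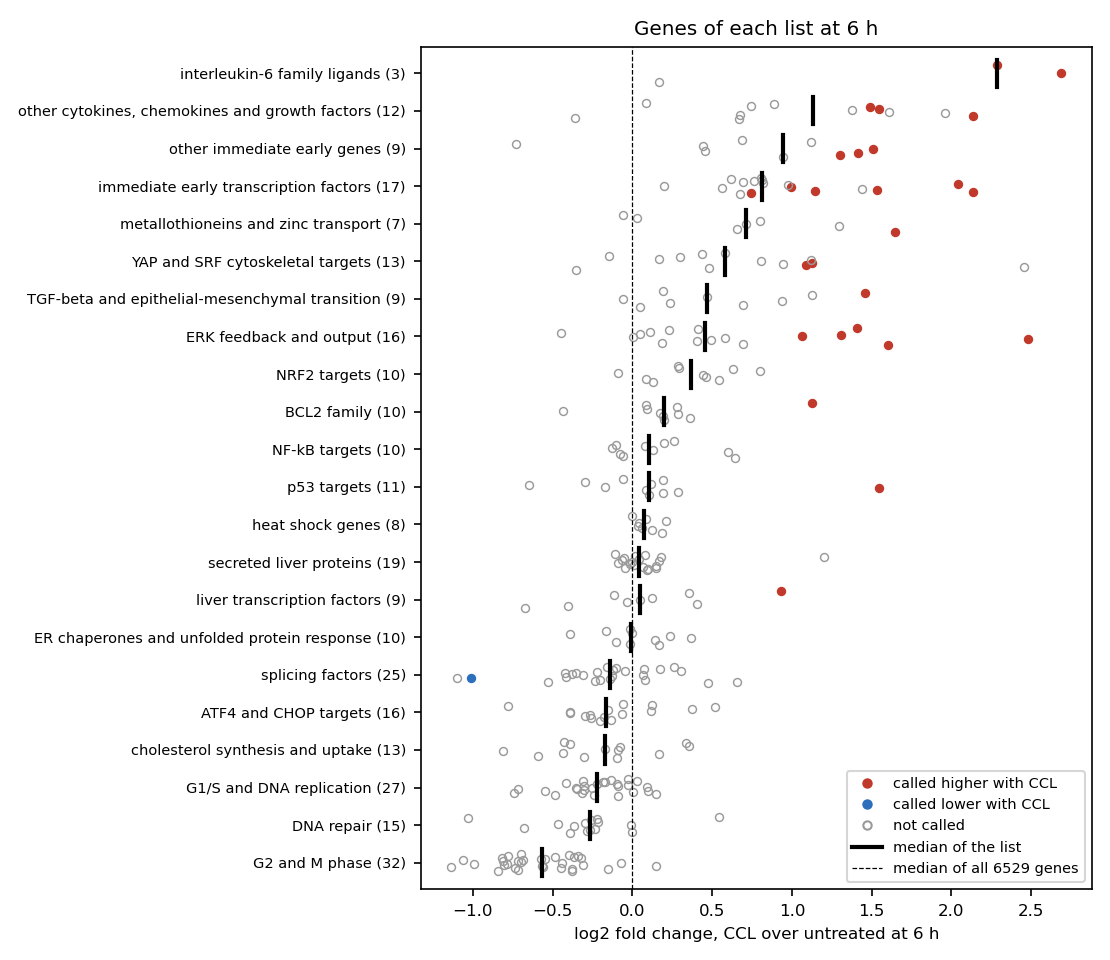
Log2 fold change of CCL over untreated cells at 6 h (x axis) for the tested genes of 22 of the lists (number tested in parentheses), 1 circle a gene, filled red where called higher and blue where called lower; thick bars are list medians and the dashed line is the median of all genes. Lists of cytokines and immediate early genes lie furthest to the right, up to 2.69 for IL11, and the G2 and M phase list furthest to the left, with a median of -0.57 and no call.

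Cell cycle genes had mostly negative differences, and no listed gene was called. Of 32 genes of G2 and M phase 0 passed the limma test (0 higher and 15 lower at an unadjusted p under 0.05), 31 had a negative difference, and in 20 the arms did not overlap with CCL lower, beside 11.2% of all genes. The median was -0.57, and -0.61 with the deposited values. CCNF (cyclin F) had 5.44, 6.32 and 4.80 with CCL and 6.71, 6.67 and 6.59 in untreated cells, a difference of -1.14 ± 0.30 (adjusted p 0.0625, or 0.00505 with the block). PLK1, the main mitotic polo-like kinase, had 8.93, 9.40 and 9.41 with CCL and 10.03, 10.12 and 9.93 in untreated cells, a difference of -0.78 (adjusted p 0.106, or 0.0258 with the block). With the block 5 of the 32 were lower, beside 1.24% of all genes: CCNF, PLK1, KIF2C, CENPA and CKAP2. CCNB1 (cyclin B1) differed by -0.74 (0.178, or 0.0626 with the block). For 27 genes of G1/S and DNA replication the median was -0.22 and 0 passed (0 higher and 1 lower at an unadjusted p under 0.05). For 15 DNA repair genes the median was -0.27 and 0 passed (0 higher and 2 lower at an unadjusted p under 0.05).

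The 26 lower genes were smaller in effect, from -0.71 to -1.43, and dimmer: their median level was 4.48 with CCL and 5.41 in untreated cells, while the 59 higher genes had 7.30 and 6.03. The largest fall among called genes was that of WDCP, a WD repeat and coiled-coil protein, with 5.20, 5.07 and 5.43 in CCL arrays against 6.57, 6.73 and 6.67 in untreated arrays (difference -1.43 ± 0.23, 2.69-fold lower, adjusted p 0.00184). ASB16-AS1, a long non-coding RNA antisense to ASB16, had 4.74, 4.86 and 4.95 with CCL and 6.11, 5.81 and 6.36 in untreated cells (difference -1.24 ± 0.21, adjusted p 0.00322). WDCP and ASB16-AS1 were the 2 genes called lower with the deposited values (adjusted p 0.0213 for each), and the 2 of the 26 whose call held without any 1 of the 6 arrays (highest adjusted p 0.0202 and 0.0328). Of the other 24, 8 lost the call whichever array was left out.

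CDC23, a subunit of the anaphase-promoting complex, had 6.52, 6.54 and 6.47 with CCL and 7.45, 7.54 and 7.80 in untreated cells, a difference of -1.09 ± 0.21 (adjusted p 0.00842, but 0.0506 without the untreated array of set 3). CDCA8 (borealin, of the chromosomal passenger complex) had 5.86, 6.10 and 5.92 with CCL and 6.91, 7.28 and 6.89 in untreated cells, a difference of -1.07 ± 0.23 (adjusted p 0.0159; highest 0.113 without the untreated array of set 2). HILPDA, a lipid droplet protein that inhibits triglyceride breakdown, fell by 0.91 on the log2 scale, with 4.01, 4.54 and 4.09 in CCL arrays and 5.17, 5.00 and 5.21 in untreated arrays (adjusted p 0.00943, but up to 0.0529 without the CCL arrays of set 1 or 3). FAN1, a repair nuclease, was called (-0.87; highest adjusted p 0.103 without the untreated array of set 2), and so was RECQL5, a helicase (-0.98; highest 0.103 without the same array).

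METTL4, TRMT1L and MRM1, each a member of an RNA or DNA methyltransferase family, fell by 1.20, 1.03 and 1.00 on the log2 scale, with adjusted p of 0.0285, 0.0275 and 0.0275 and highest values between 0.141 and 0.165 when 1 array was left out; MRM1 lost its call whichever array that was. KCTD18 (-1.03, adjusted p 0.0495) and RFXAP, a subunit of the regulator of MHC class II genes (-1.0, 0.0234), fell too, with highest values of 0.177 and 0.165. KAT14, an acetyltransferase, differed by -1.20 (adjusted p 0.0409), and PNISR, the 1 splicing gene called of 25 (0.398% of all genes were called lower), by -1.01 (0.0467). Both calls ended whichever array was left out. RBM12B (-1.27, adjusted p 0.0358) and TMEM168 (-1.30, 0.0397) lost the call in the same way. ZNF451 (-1.12, adjusted p 0.0163) was the 1 gene called of 184 with a ZNF name, near the 0.398% of all genes called lower. A second probe set above the level filter differed by 0.06, so the probe sets of ZNF451 disagree. The call ended without the untreated array of set 2 (0.103) among others. Second, dim probe sets of RBM12B and UNC119B (-1.03, adjusted p 0.0275) differed by -0.12 and 0.17.

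Of the 59 higher genes, 27 belonged to one of the lists of known function, and of the 26 lower genes 1 did, beside 359 of all 6529 genes tested. The lists were chosen with earlier results of these data known, so the 27 are not an independent result. Lists made from gene names alone (MIR, LINC, antisense, ZNF) held MIR3189 and LINC00673 of the higher genes besides. Of the lower genes they held ASB16-AS1 and ZNF451. Higher genes outside the lists included NAB2, the corepressor of EGR1 (1.38 ± 0.29, adjusted p 0.015), SHB, an adaptor of tyrosine kinase signalling (1.30 ± 0.28, 0.0159), TRIB1, a pseudokinase that directs C/EBP-alpha to degradation (1.26 ± 0.21, 0.00292), RND1 (1.45 ± 0.28, 0.00842), and TCIM, a small regulator of transcription (1.64 ± 0.40, 0.039). TRIB1 held without any 1 array (highest adjusted p 0.0284) but not with the deposited values (0.052). The others reached 0.085, 0.103, 0.1 and 0.204 without the untreated array of set 2. NAB2 and RND1 passed the level filter through CCL arrays and had to be higher there. ETS2, an ETS family transcription factor (0.92 ± 0.20, adjusted p 0.0159), KLF11 (1.14 ± 0.26, 0.0231), ZC3H12A, a ribonuclease that degrades cytokine mRNAs (0.84 ± 0.18, 0.0153), and SIK1, a salt-inducible kinase (1.02 ± 0.22, 0.0183), rose as well. Without the CCL array of set 3 the adjusted p was 0.103 for ETS2, 0.133 for KLF11 and 0.113 for SIK1, whose difference became 0.68; ZC3H12A reached 0.109 without the untreated array of set 2. Of the called genes named in the text, these except TCIM, and also SAT1, WEE1, FST, ZYX, TGFB1I1, HILPDA, FAN1, AKAP12, GOLT1A and ZIK1, were picked for mention after their values were seen.

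The remaining lists gave single calls or none. NDRG1, induced by low oxygen, was the 1 gene called of 11 hypoxia targets, beside 0.904% of all genes called higher. It passed the level filter through CCL arrays and had to be higher there. NDRG1 had 5.53, 5.06 and 5.12 in CCL arrays against 4.18, 3.77 and 4.22 in untreated arrays (difference 1.18 ± 0.29, adjusted p 0.0399), and it lost the call whichever array was left out (highest 0.218). Of 69 genes with LINC or antisense names 1 rose and 1 fell, beside 0.904% and 0.398% of all genes. LINC00673 rose by 0.75 ± 0.16 (adjusted p 0.0153, highest 0.103 without the untreated array of set 2) and ASB16-AS1 fell. For 14 genes of fatty acid and triglyceride synthesis 0 passed (1 higher and 0 lower at an unadjusted p under 0.05), the largest difference being that of GPAT3, at 1.20 (adjusted p 0.126, or 0.0165 with the block). For 6 interferon-stimulated genes 0 passed (1 higher and 0 lower at an unadjusted p under 0.05). IFITM3, an antiviral membrane protein among them, had 9.29, 4.92 and 5.18 in CCL arrays against 4.93, 5.02 and 4.73 in untreated arrays, so that 1 CCL array carried its difference of 1.57, which was 0.16 without it. For 40 cytosolic ribosomal protein genes 0 passed (1 higher and 0 lower at an unadjusted p under 0.05), with a median of 0.09.

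Sets contributed unequally. Over the 59 higher genes the median difference between the CCL and the untreated array of a set was 1.1 in set 1, 1.34 in set 2 and 1.30 in set 3, and the largest of the 3 was that of set 1 in 5 genes, set 2 in 26 and set 3 in 28. Over the 26 lower genes the medians were -1.01, -0.95 and -1.10. Single genes differed in how even the sets were. In EGR1 the differences were 1.23, 2.18 and 2.99 in sets 1 to 3, in FOSB 0.79, 1.16 and 2.65, in PLK3 0.63, 1.43 and 2.47, in KLF11 0.96, 0.51 and 1.95, and in FHL2 0.37, 1.71 and 1.30. In IL11 they were 2.29, 2.85 and 2.92, in EPHA2 1.14, 1.52 and 1.26, in FOS 1.24, 0.93 and 1.27, and in NAB2 1.23, 1.34 and 1.58.

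**Figure D4:**
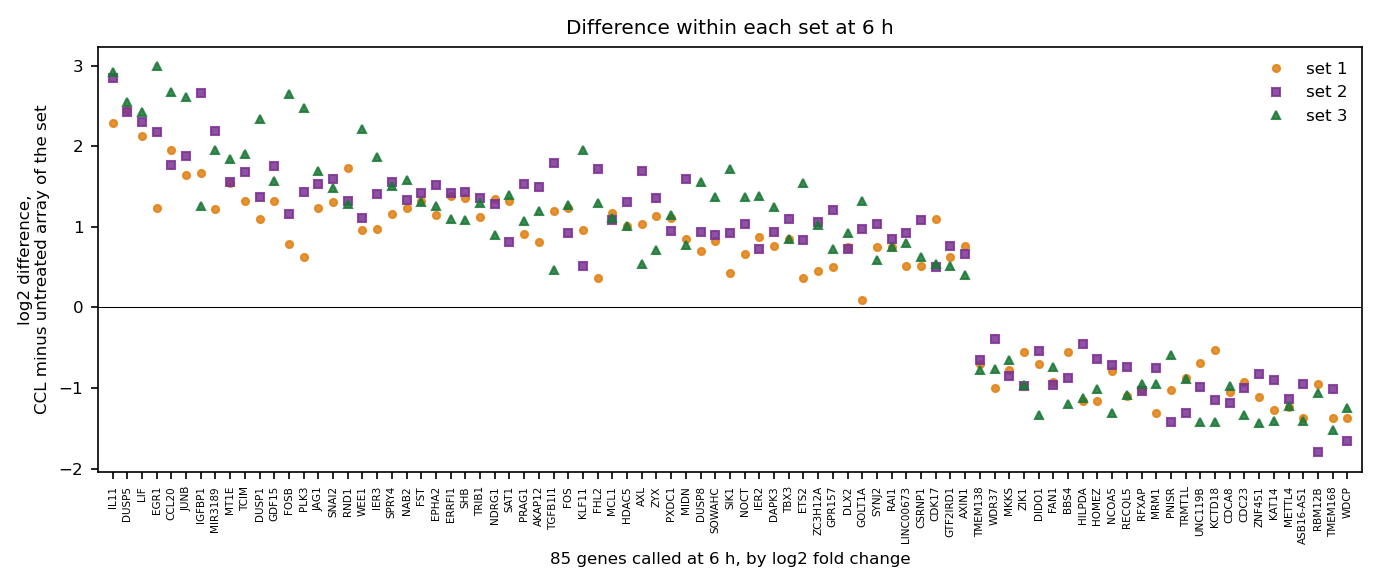
Difference in log2 expression between the CCL and the untreated array of the same set at 6 h (y axis) for the 85 genes called, ordered by log2 fold change (x axis), with 1 symbol a set. All symbols of the 59 genes on the left lie above 0 and all those of the 26 on the right below 0. This follows wherever the arms do not overlap, and the genes were chosen on these same arrays. Set 1 is close to 0 for GOLT1A.

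At later times the 59 higher genes kept the direction in most cases: 58 were above 0 at 12 h, 57 at 18 h, 58 at 24 h and 54 at 48 h, and 37, 26, 32 and 32 were called higher again. Over all genes 1.78%, 3.43%, 4.53% and 5.18% were called higher at these times. The later comparisons use other arrays in both arms, but share the estimate of spread. The secreted signals were called at all 4 later times for IL11 (3.06, 3.20, 4.24 and 2.94 at 12, 18, 24 and 48 h), LIF (1.87, 2.31, 2.70 and 2.15) and GDF15 (2.38, 2.09, 2.34 and 2.19). IGFBP1 was larger at every later time, at 3.10, 3.64, 3.50 and 2.79. DUSP5, SNAI2, JAG1, EPHA2, MCL1, SAT1, IER3, PLK3 and AXL were also among the 19 genes called at every time. DUSP5 and SNAI2 passed the level filter through CCL arrays alone.

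Another 17 of the 59 were called at no later time, among them 5 of the 6 early transcription factors, the exception being IER2. EGR1 had differences of 1.17, 0.78, 0.38 and -0.07 at 12, 18, 24 and 48 h, FOS 0.39, -0.10, -0.31 and -0.01, and FOSB 0.33, 0.18, 0.01 and 0.62. JUNB had 0.87, 0.33, 1.1 and 0.89. CSRNP1, WEE1, RND1, TCIM, ERRFI1 and FST belong here too. All 17 were chosen by their calls at 6 h, and values so chosen tend to lie closer to 0 in other arrays. No decline is read from their later values. Whether the effect at 6 h differed from the mean of the 4 later effects was tested for every gene, and none of these 17 passed that test (lowest adjusted p over the 59 genes 0.213); over all genes 1 passed as higher at 6 h (DKK4, 0.0153% of genes) and 0 as lower, with 246 and 246 at an unadjusted p under 0.05.

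DKK4, a secreted inhibitor of Wnt signalling, was that gene. It had 4.44, 4.56 and 4.11 in CCL arrays at 6 h against 3.84, 3.67 and 3.33 in untreated arrays, a difference of 0.75 ± 0.28 that was not called by itself (adjusted p 0.226), and differences of 0.04, -1.45, -1.24 and -2.15 at 12, 18, 24 and 48 h. The effect at 6 h exceeded the later mean by 1.95 (adjusted p 0.019), but the call ended without the CCL array of set 2 and without the untreated arrays of set 2 or 3. It ended also without the 2 arrays of 18 h with the farthest medians and with the deposited values. All 6 levels of DKK4 at 6 h lay under 5, the level of the filter.

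The 26 lower genes were called less often later: 13 were called at no later time and 12 at 1, while ZIK1, a zinc finger gene, was called at 3. Their median difference of -1.01 at 6 h compares with -0.64, -0.35, -0.25 and -0.73 at 12, 18, 24 and 48 h, and 12 of the 26 were called lower again at 48 h, when 7.23% of all genes were; at 12, 18 and 24 h these counts were 2, 0 and 1, beside 0.459%, 1.75% and 2.36% of all genes. Values chosen for their size at 6 h tend to lie closer to 0 in other arrays because of that choice, so no decline is read from these medians.

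**Figure D5:**
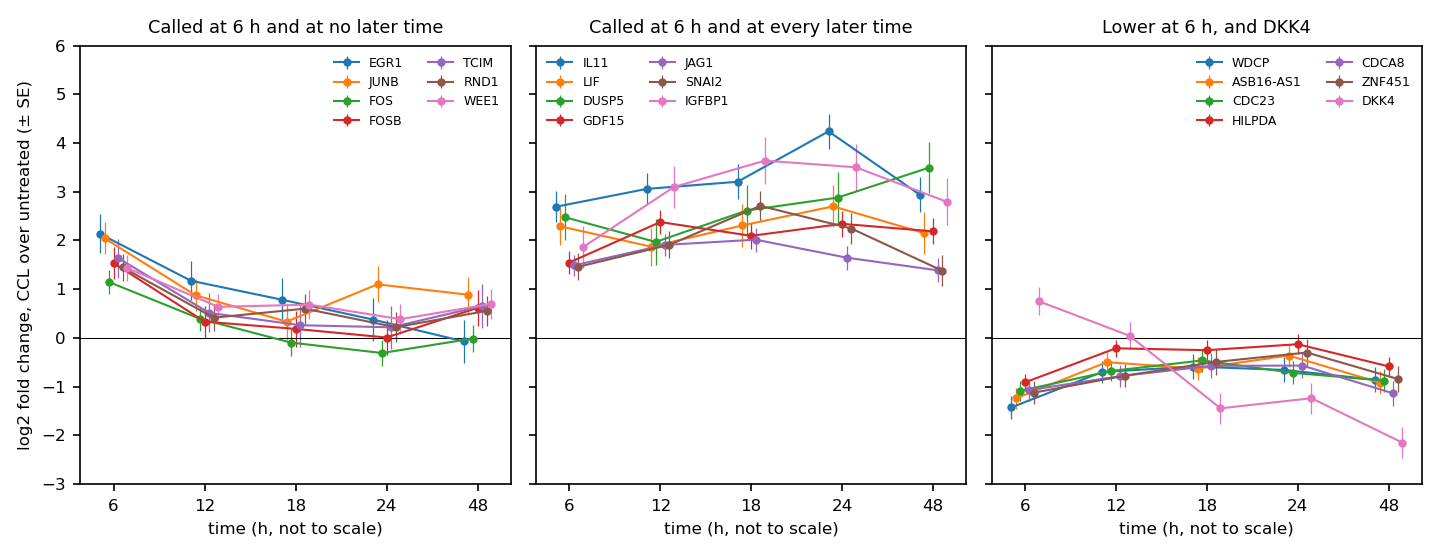
Log2 fold change of CCL over untreated cells (y axis, with SE) at 6, 12, 18, 24 and 48 h (x axis, not to scale) for named genes. EGR1 is at 2.13 at 6 h and -0.07 at 48 h, IL11 stays between 2.69 and 4.24, and DKK4 is above 0 at 6 h and at -2.15 at 48 h.

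Untreated cells at 6 h and at 0 h (2 arrays) did not differ in any gene by limma (0 higher and 0 lower, 108 and 41 at an unadjusted p under 0.05). JUNB was 0.86 and IL11 0.97 higher in untreated cells at 6 h than at 0 h, and EGR1 0.59; these differences did not pass the test and were smaller than those between the arms at 6 h.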

How the data were processed

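Total RNA of 29 HepG2 samples was hybridized to Affymetrix arrays as biotinylated cRNA, per the labels' protocols. The authors deposited log2 values, 1 per probe set and array, for which the submitters' processing notes name RMA and Affymetrix Expression Console 1.1; array medians differ, and which arrays were normalized together is not given in the sources used here. Intensities and detection calls were not used, and precision is limited by the number of arrays.

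Of 53617 probe sets, 16098 carry 1 gene symbol in the platform annotation, for 14884 genes, and the other 37519 none; none carried several. The 29 arrays were quantile-normalized together. For each gene the probe set with the highest mean was kept, and 6529 genes above log2 5 (deposited) on at least 2 arrays were tested. limma 3.58.1 in R 4.3.3 fitted 1 mean per group over all 29 arrays, with empirical Bayes variances, two-sided tests and Benjamini-Hochberg adjustment over the 6529 genes; fold changes are CCL over untreated. Calls have an adjusted p under 0.05. The fit was tested on simulated data.

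Set numbers were taken as pairing the arms of 6 h, because the deviations of same-numbered arrays from their group means correlated at 0.267, 0.237 and 0.454 in sets 1 to 3, each above 0.1, although CCL set 2 correlated at 0.273 with untreated set 1. Named are the 16 highest and 16 lowest called genes whose arrays do not overlap, called members of the lists, a fixed group of genes, the calls of the 6 h against later contrast, and up to 2 of each other list; further genes that the text picks out (EREG, SGK1, STAT3, PLK1, CENPA and others) were chosen after their values were seen. Members and lists were chosen with earlier results of these data known. NFKBIA and ACTB, without a named probe set, were not used here. Alternatives covered the normalization, filter, variance prior, array weights, block, probe sets and single arrays. Figures were drawn with matplotlib 3.10.9.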

Additional observations from a re-analysis of the deposited data

Results flagged for a closer look

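DKK4 was the only one of 6529 genes whose CCL effect at 6 h differed from the mean of its effects at 12, 18, 24 and 48 h by limma's test of the difference itself. The effect at 6 h exceeded the later mean by 1.9513 on the log2 scale, with an adjusted p of 0.019.

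Probe sets without a gene symbol were left out of the comparison. Of 7720 such probe sets above the level filter, 26 were called higher and 11 lower with CCL at 6 h, by the same limma test, adjusted over these probe sets.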

How the results depend on the processing

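Genes called higher and lower at 6 h numbered 59 and 26, and 18 and 2 with the values as deposited, 65 and 16 with array medians subtracted, 66 and 58 with the 6 arrays of 6 h fitted alone, 66 and 56 with them normalized and fitted alone, 44 and 17 with no filter, 54 and 16 with a stricter one, and 126 and 122 with array weights. With the set as a replicate block they were 111 and 81, 165 and 192 in the 6 arrays alone, and 63 and 45 on deposited values. Leaving out 1 array gave 15 to 47 and 5 to 21. A trended or robust variance prior, every named probe set by itself, and the added fit without the 2 arrays of 18 h with the farthest medians, which was chosen after seeing the data, kept both counts within 1.5 times. For the effect at 6 h minus the later mean, 1 and 0 genes were called (higher and lower at 6 h), against 0 and 0 with deposited values, 2 and 0 with medians subtracted, 0 and 0 with the stricter filter, 4 and 1 with array weights, 4 and 6 with the replicate block, 3 and 11 with the block on deposited values, 0 to 2 and 0 to 1 when leaving out 1 array, and 0 and 0 without the 2 arrays of 18 h. The cause of these shifts was not tested. Over 3216 values of 163 named, called or listed genes under 20 alternatives, 2636 kept their side of the threshold, 481 lost a call and 99 gained one; no called gene changed sign, and 21 values of genes not called did. With the block, some listed genes not named above were called as well. It gave 2 higher of 11 hypoxia targets and 4 higher of 13 targets of YAP and serum response factor, beside 1.7% of all genes. Among 184 genes with a ZNF name it gave 2 higher and 8 lower, beside 1.7% and 1.24% of all genes. The block was not fitted for single later times. Levels near the filter are close to background, and no detection call limits them.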
